A study of Homo sapiens with 8 samples.

Results

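The replication-dependent histone genes are the copies of histone H1, H2A, H2B, H3 and H4 that carried the older HIST1, HIST2, HIST3 and HIST4 names. Of 90 genes that meet this rule in the RefSeq gene table, 67 were matched to a probe on the array, among 20296 genes named there in all. The 67 comprised 6 H1, 16 H2A, 18 H2B, 13 H3 and 14 H4 genes. The other 23 were 18 pseudogenes and 5 protein-coding genes (H3-7, H4C14, H3C14, H2AC18 and H2AC11), which are not analysed here.

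RNA was taken from MCF10A cells, a line of human breast epithelium that does not form tumours, with the p53 gene intact (p53+/+) or absent (p53-/-). Untreated cells of each genotype were taken at 0 h, and cells exposed to doxorubicin (adriamycin, ADR) for 2 h were taken 12, 24 and 48 h later, so the 0 h cells differ from the others in both treatment and time. The labels give the dose as 0.5 µg/ml, and the methods of the study give a higher one. ADR damages DNA, and p53 is a transcription factor that responds to such damage. Each of the 8 arrays held a different combination of genotype and time, so no single value has a replicate error, and all p53-/- results come from 1 derivative of 1 cell line.

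Core histones H2A, H2B, H3 and H4 form the protein spool around which DNA is wound, and the linker histone H1 binds the DNA between spools. Most of their genes lie in clusters and are transcribed in S phase, under the co-activator NPAT, to supply newly copied DNA. Their mRNAs normally end in a stem-loop bound by the protein SLBP instead of a poly(A) tail, but some copies also make polyadenylated mRNA, which has been described in cells that have stopped dividing or are differentiating. The labelling protocol named in the labels primes cDNA on poly(A), so the signals are expected to weigh polyadenylated forms, and the array cannot separate the mRNA forms. In bulk RNA, fewer cells in a given state and less RNA per cell cannot be told apart.

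Many H2A and H2B genes sit back to back and share the DNA between their starts. RefSeq sequence upstream of the transcription start is shown for the genes on which the results turn (GRCh38.p14, 5′ to 3′ on the strand of the gene). The first is the whole 222 bases between the starts of H2AC7 and H2BC7 (chr6:26199294-26199515, minus strand, ending at H2AC7), because these neighbours had opposite differences between the genotypes. The next 6 are the 120 bases before H2AC19 (chr1:149850941-149851060, plus strand), H2BC9 (chr6:26251494-26251613, plus strand), H1-2 (chr6:26056471-26056590, minus strand), H1-1 (chr6:26017788-26017907, minus strand), H3C2 (chr6:26032100-26032219, minus strand) and H4C15 (chr1:149861160-149861279, minus strand). They show members that were higher or lower in treated p53+/+ cells, from each class. Capitals mark, on either strand, the octamer ATTTGCAT that binds OCT1, CCAAT, the TATA-type sequence TATAAA, and the E2F-like sequences TTTCGCGC and TTTGGCGC.
H2AC7 to H2BC7 gap: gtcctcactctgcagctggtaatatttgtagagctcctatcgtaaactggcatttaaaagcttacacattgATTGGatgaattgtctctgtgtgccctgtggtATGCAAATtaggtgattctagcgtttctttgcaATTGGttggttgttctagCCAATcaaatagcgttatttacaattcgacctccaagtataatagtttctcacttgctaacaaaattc
H2AC19: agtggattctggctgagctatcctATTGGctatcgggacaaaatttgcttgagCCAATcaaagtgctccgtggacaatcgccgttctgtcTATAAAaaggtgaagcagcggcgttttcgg
H2BC9: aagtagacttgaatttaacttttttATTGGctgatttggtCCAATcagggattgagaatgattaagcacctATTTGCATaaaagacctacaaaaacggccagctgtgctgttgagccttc
H1-2: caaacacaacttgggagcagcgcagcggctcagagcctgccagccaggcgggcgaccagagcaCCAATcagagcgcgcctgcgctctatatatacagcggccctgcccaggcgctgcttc
H1-1: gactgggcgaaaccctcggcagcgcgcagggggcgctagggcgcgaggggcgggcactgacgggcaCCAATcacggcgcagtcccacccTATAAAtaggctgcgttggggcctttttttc
H3C2: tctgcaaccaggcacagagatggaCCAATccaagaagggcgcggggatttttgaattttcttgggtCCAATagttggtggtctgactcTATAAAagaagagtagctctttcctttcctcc
H4C15: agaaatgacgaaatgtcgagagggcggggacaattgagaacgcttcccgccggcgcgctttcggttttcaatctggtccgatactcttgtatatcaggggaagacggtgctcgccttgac

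Over the 250 bases before each start, 61 of the 67 members had an entry in the promoter table. The octamer was present for 41.0% of these 61 and for 2.03% of all 27305 genes in the table. By class it was present in 10 of 14 H2A, 14 of 18 H2B, 1 of 11 H3, 0 of 6 H1 and 0 of 12 H4 genes. The H3 gene is H3C4, which RefSeq lists with a start shared with H2AC7 and another whose window lacks the octamer, so the H2AC7 sequence is counted for both genes. CCAAT, which is short and frequent, was present for 85.3% of members against 37% of all genes, and in 3 of 12 H4 genes. TATAAA was found for 67.2% of members against 13.1% of all genes, and an E2F-like sequence for 16.4% against 1.2%. The H4C15 sequence above holds none of these letters.

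Values below are log2 signals minus the log2 of the array's 75th percentile, and a difference of 1 is 2-fold. Of the 67 members, 64 were above background on at least 1 array and 57 on all 8. H2AC1 and the pseudogene H2AC2P passed on 1 array only. H1-6, H2BC1 and H4C7 were above background on none and were not tested; H1-6 and H2BC1 are known as testis histones. Levels were compared within a probe and not between probes.

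Several facts of the 8 arrays touch these results. CDKN1A, the p53 target that encodes p21, read -1.14, 2.54, 2.63 and 2.70 at 0, 12, 24 and 48 h in p53+/+ cells, against -2.97, -0.96, -0.64 and -0.48 in p53-/- cells. The array labelled p53+/+ 0 h stood apart from the treated p53+/+ arrays. On 68 probes that separate those from the p53-/- arrays, on a scale from 0 (p53-/-) to 1 (treated p53+/+), its median position was 0.0217, so counts of 2-fold changes in p53+/+ cells are also given from the p53-/- 0 h array. Single changes and fits that use the p53+/+ 0 h array rest on it. On the p53+/+ 48 h array, 0 of 10 spike-in probes were above background against 6 on each other array, and 232 probes were at least 4-fold below every other array, against at most 21 elsewhere. H1-1, H1-5 and H3C15 were among those 232, and the results are given without that array where this changes them. Genotype and array column on the single slide cannot be told apart. All 7 mammary epithelial markers, such as KRT5 and CDH1, were above background on all 8 arrays. In treated p53+/+ cells 6 of the 7 were called higher, against 11.6% of all genes. Their median change from 0 h was 1.71, 1.97 and 2.45 at 12, 24 and 48 h in p53+/+ cells, against 0.22, 0.08 and 0.52 in p53-/- cells. Of 8 markers of leukocytes, endothelium, fibroblasts and hepatocytes, 2 (PTPRC and CDH5) were above background on all arrays. Called lower in treated p53+/+ cells were 3, against 9.34% of all genes: PECAM1, COL1A1 and PDGFRB (limma adjusted p = 0.0022, 0.0023 and 0.0237). Each of the 3 was not above background on any of the 3 treated p53+/+ arrays. The list's median level per array lay between -5.62 and -3.74 in p53+/+ cells and between -4.18 and -3.74 in p53-/- cells. Their part in the histone results was not tested.

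The first question was how far each gene moved from its own 0 h array. In p53+/+ cells 20 of the 64 members tested rose at least 2-fold at all 3 times (31.3%), against 9.53% of all 15811 genes above background. These were 11 of 17 H2B, 7 of 16 H2A and 2 of 13 H4 genes, and 0 of 13 H3 and 0 of 5 H1 genes. Members that fell at least 2-fold at all 3 times numbered 2 (H1-1 and H3C2), against 6.39% of all genes. In p53-/- cells 0 members rose and 2 (H1-3 and H1-4) fell in this way, with 3.21% and 2.04% of all genes doing so. Taken from the p53-/- 0 h array instead, 9 members (14.1%) were at least 2-fold higher at all 3 times in treated p53+/+ cells and 8 (12.5%) lower, against 9.55% and 6.79% of all genes. The excess of rises over the background was thus much smaller from that array. With no scaling between arrays 9 rose and 7 fell, against 6.25% and 12.4% of all genes.

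**Figure D1:**
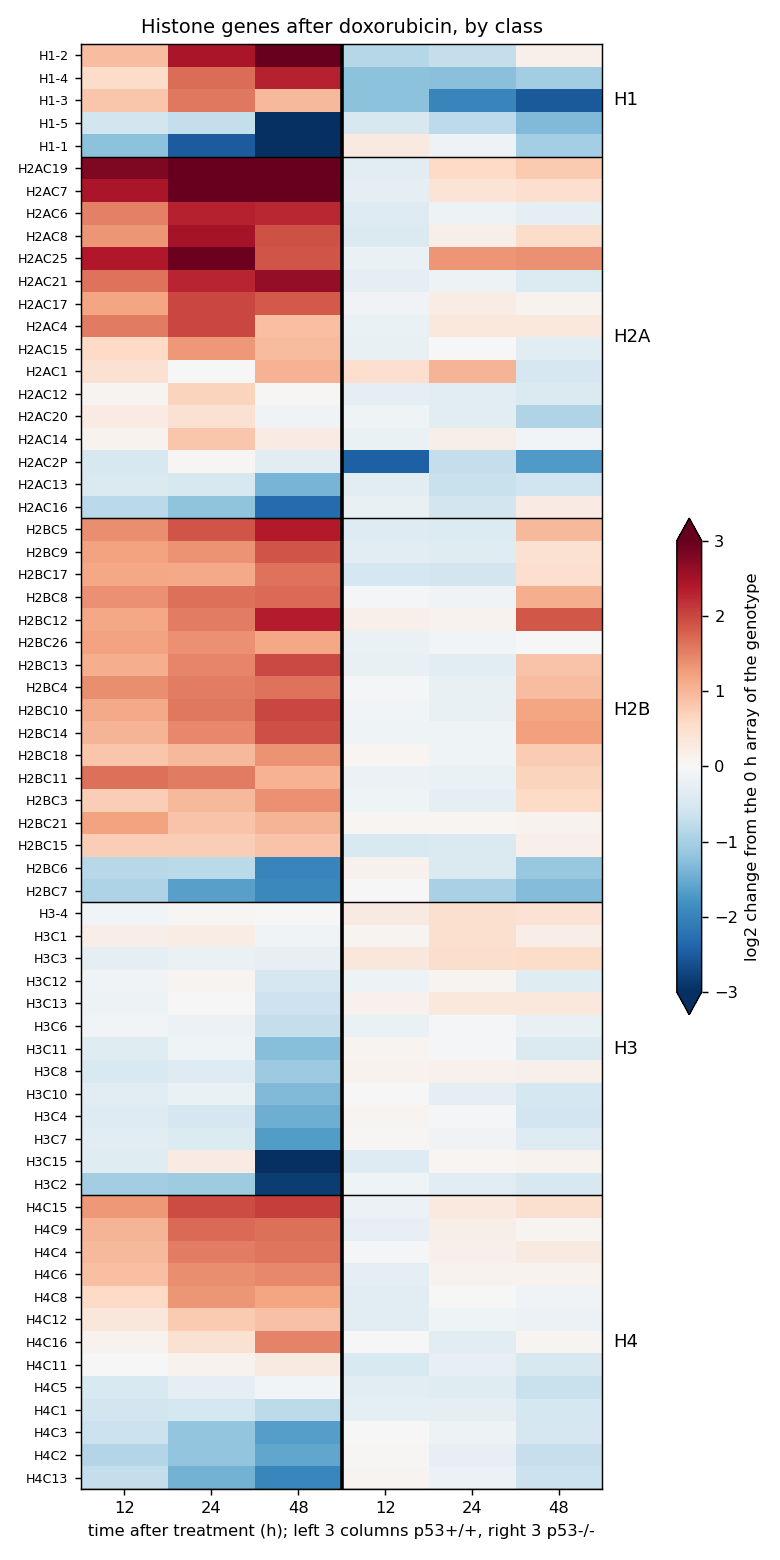
Each row is a histone gene above background on at least 1 array and each column is a treated array, left 3 for p53+/+ and right 3 for p53-/- cells; colour is the log2 change from the 0 h array of the same genotype, cut at 3 in either direction. Red fills most H2A and H2B rows on the p53+/+ side, where 7 of 16 and 11 of 17 rose at least 2-fold at all 3 times, while no H3 row did.

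Counts grew with time in p53+/+ cells, and for rises the share of all genes grew too. At 12, 24 and 48 h there were 22, 28 and 30 members at least 2-fold above 0 h (34.4%, 43.8% and 46.9%), with 13.1%, 15.7% and 19.0% of all genes. Members at least 2-fold below 0 h numbered 2, 7 and 16, with 10.8%, 14.3% and 12.3% of all genes. At 48 h, 7 of those 16 were H3 genes, on the array where the spike-in probes were not above background. From the p53-/- 0 h array, 10, 20 and 23 members were at least 2-fold higher in p53+/+ cells at the 3 times (13.7%, 15.6% and 18.8% of all genes) and 12, 13 and 20 lower (11%, 13.7% and 12.1%). At 12 h the rises were then close to the background. With no scaling, 11, 26 and 20 members rose from the p53+/+ 0 h array (9.65%, 12.1% and 10.1% of all genes), so rises did not grow to 48 h. Falls then numbered 7, 9 and 20 (17.6%, 22.7% and 26.5% of all genes). In p53-/- cells 0, 2 and 5 members were at least 2-fold above 0 h (background 4.82%, 9.65% and 14.9%) and 3, 2 and 7 below it (5.62%, 5.34% and 7.51%).

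The second question needs no 0 h array, and compares the 3 treated p53+/+ arrays with the 3 treated p53-/- arrays. The times of a genotype stand in for replicates in the limma fit, so its p-values set the difference against movement over time and not against the spread between cultures. At an adjusted p of 0.05, 9 of 64 members were higher in treated p53+/+ cells (14.1%) and 8 were lower (12.5%). Over all genes 11.6% were higher and 9.34% lower (1829 and 1476 genes), so in this fit these shares were close to the background. Without the 48 h arrays 9 were called higher and 4 lower, where 932 and 827 of all genes were called. Members called higher thus stayed at 9 while genes called higher fell from 1829 to 932. That share of members was then above the background. With time as a block 15 members were higher and 10 lower, against 1579 and 1274 of all genes. Both shares were then above the background. Without the 12 h arrays 7 were called higher and 1 lower (970 and 804 of all genes), and without the 24 h arrays 0 in either direction (130 and 67). Members whose treated arrays did not overlap between genotypes numbered 20 higher and 20 lower, against 24.6% and 19.9% of all genes. The classes differed from each other. The median difference was 0.82 for H1, 0.52 for H2A, 1.01 for H2B, -0.90 for H3 and -0.05 for H4, beside 0.35 for all members and 0.05 for all genes. With no scaling, which moved the median of all genes to -0.55, the H2A median turned to -0.08, and that of H2B was 0.41 and of H3 -1.50. The H4 median changed sign in 5 alternatives and has no settled direction.

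**Figure D2:**
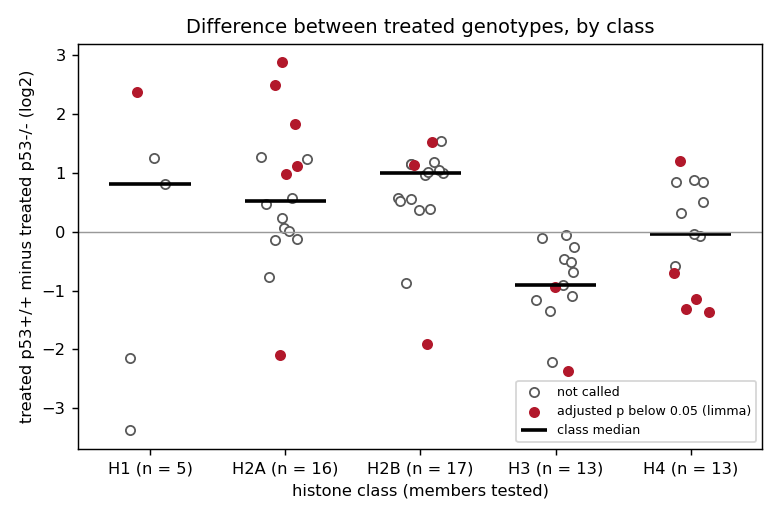
Points are genes, by histone class on the horizontal axis, and the vertical axis is the log2 difference between the means of the 3 treated p53+/+ and the 3 treated p53-/- arrays; filled points passed an adjusted p of 0.05 in limma and bars are class medians. All 13 H3 genes lie below 0 and 15 of 17 H2B genes above it, while H1 and H4 genes are spread on both sides.

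Linker histone genes went apart from each other. H1-2, the H1.2 gene, read 3.53, 4.44, 5.98 and 6.85 at 0, 12, 24 and 48 h in p53+/+ cells, against 3.86, 2.99, 3.14 and 4.02 in p53-/- cells. Every treated p53+/+ array was above every p53-/- array, and the treated difference was 2.38 (SE 0.62, limma adjusted p = 0.0435), with an adjusted p of 0.0844 without the 48 h arrays. H1-1, the H1.1 gene, read 2.70, 1.46, 0.20 and -2.60 in p53+/+ cells, against 3.37, 3.63, 3.22 and 2.34 in p53-/- cells. Its treated groups did not overlap either, in the opposite order, and the difference of -3.38 (SE 0.99) missed the threshold (limma adjusted p = 0.061), which it passed without the 48 h arrays (-2.59, adjusted p = 0.0462). H1-5, the H1.5 gene, read -0.87, -1.43, -1.58 and -5.14 in p53+/+ cells, the last not above background, and 0.30, -0.18, -0.50 and -1.03 in p53-/- cells. It was lower on all treated p53+/+ arrays, with a difference of -2.14 (SE 0.97) that was not called (limma adjusted p = 0.175) and was -1.16 without the 48 h arrays.

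H1-3 and H1-4, the H1.3 and H1.4 genes, were the 2 members that fell at all 3 times in p53-/- cells. H1-3 read 2.24 at 0 h and 1.01, 0.26 and -0.29 afterwards in p53-/- cells, against 0.01, 0.85, 1.58 and 0.99 in p53+/+ cells. H1-4 read 2.37, 1.15, 1.12 and 1.33 in p53-/- cells, against 0.95, 1.50, 2.62 and 3.25 in p53+/+ cells. For both genes the p53-/- 0 h array was the highest of its genotype and stood above the p53+/+ 0 h array. Their treated differences were 0.82 and 1.26, and neither was called (limma adjusted p = 0.18 and 0.0924).

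H2A genes had the 2 highest positive differences of all members. H2AC19 read 0.46, 3.26, 4.20 and 4.11 in p53+/+ cells, against 0.62, 0.29, 1.23 and 1.42 in p53-/- cells. The treated groups were 2.88 apart (SE 0.39, limma adjusted p = 0.0055), while the difference between the 0 h arrays was -0.16. H2AC19 and H2AC18 are near-identical copies, so the signal may belong to either. H2AC7 read 2.64, 5.09, 5.96 and 5.96 in p53+/+ cells, against 2.96, 2.67, 3.37 and 3.47 in p53-/- cells, a difference of 2.50 (SE 0.34, limma adjusted p = 0.0054). H2AC6, a gene described to make polyadenylated mRNA, read -0.53, 0.97, 1.78 and 1.72 in p53+/+ cells, against -0.06, -0.44, -0.21 and -0.36 in p53-/- cells. Its difference was 1.83 (SE 0.26, limma adjusted p = 0.0067; 0.0535 without the 48 h arrays), and its second probe gave 0.73 (adjusted p = 0.0452). H2AC21 and H2AC17 were the other H2A genes called higher, by 1.12 and 0.99.

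Not all H2A genes followed these. H2AC16 read -2.43, -3.23, -3.64 and -4.75 in p53+/+ cells, the last not above background, and -1.61, -1.83, -2.15 and -1.36 in p53-/- cells, and was the one H2A gene called lower (-2.09, SE 0.43, limma adjusted p = 0.0202). H2AC14, named for its strong signal, read 3.94, 4.05, 4.76 and 4.17 in p53+/+ cells, against 4.50, 4.29, 4.67 and 4.41 in p53-/- cells, and its treated groups overlapped. H2AC25, of the small chromosome 1 cluster, had the highest mean change of all members in p53-/- cells. It read -3.60, -1.20, -0.67 and -1.72 in p53+/+ cells, against -3.26, -3.45, -1.94 and -1.88 in p53-/- cells. The p53-/- array at 12 h stayed near its 0 h level, and those at 24 and 48 h were higher. Its treated difference of 1.23 was not called (limma adjusted p = 0.131).

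**Figure D3:**
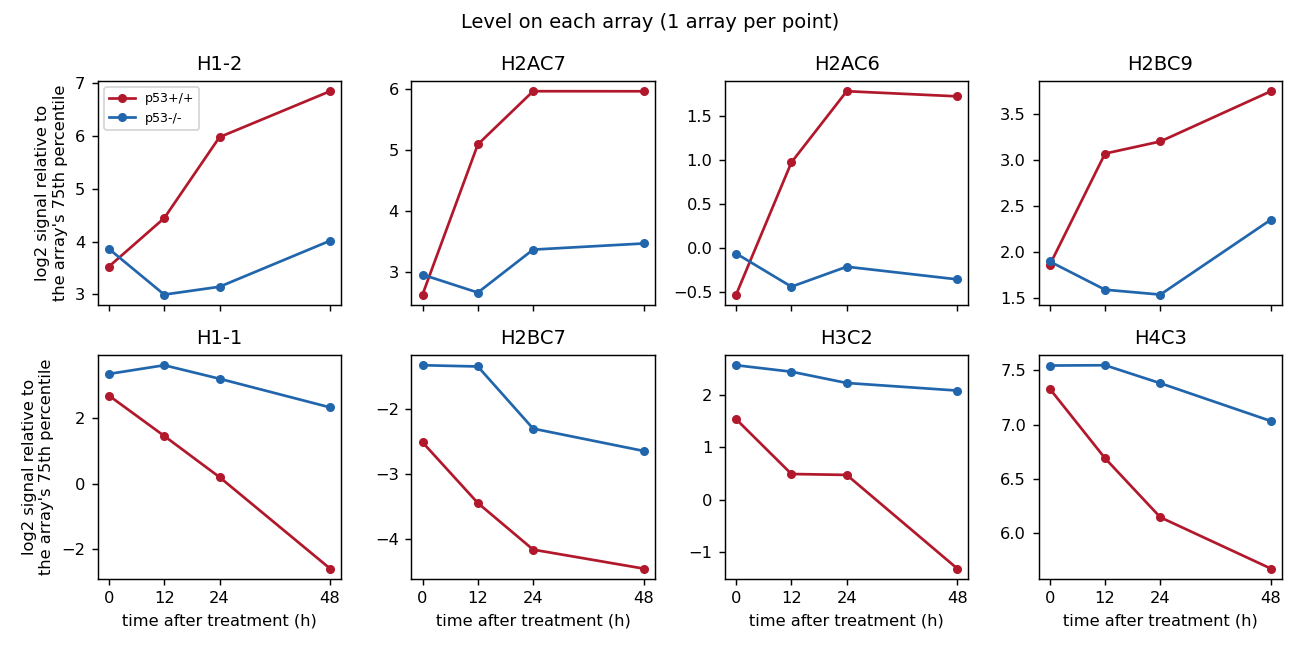
Each panel is a gene, with time after treatment in hours on the horizontal axis and the log2 signal relative to the array's 75th percentile on the vertical axis; each point is 1 array, red for p53+/+ and blue for p53-/-, and the vertical scale differs between panels. H1-2, H2AC7, H2AC6 and H2BC9 are above the blue line at all treated times, and H1-1, H2BC7, H3C2 and H4C3 below it.

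In the H2B class 15 of 17 genes were above 0 h at all 3 times in p53+/+ cells, and 15 of 17 had treated differences above 0. The 11 genes that rose had changes between 1.02 and 2.38 over the 3 times. The levels of H2B genes also ran alike over the 8 arrays, with a median Pearson r of 0.87 over 136 pairs of genes, against 0.86 for H3, 0.38 for H2A, 0.01 for H4 and -0.04 for H1. These 8 arrays share genotype, treatment and scaling, and copies of a class can share sequence, so the r values are descriptions. H2BC9 read 1.86, 3.07, 3.20 and 3.75 in p53+/+ cells, against 1.90, 1.59, 1.54 and 2.35 in p53-/- cells. Its 0 h arrays were close and its treated groups did not overlap, with a difference of 1.52 (SE 0.31, limma adjusted p = 0.0197). H2BC26 was the other H2B gene called higher, by 1.14 (SE 0.17, limma adjusted p = 0.0079).

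H2BC5 and H2BC12 are H2B genes described to make polyadenylated mRNA. H2BC5 read 0.63, 2.02, 2.52 and 3.01 in p53+/+ cells, against 0.91, 0.53, 0.49 and 1.89 in p53-/- cells, where the 48 h array was the highest. Its treated groups did not overlap, and the difference of 1.55 (SE 0.45) missed the threshold (limma adjusted p = 0.0594), but passed it in 5 alternatives, such as without the 48 h arrays (adjusted p = 0.0297). H2BC12 read 2.13, 3.29, 3.66 and 4.47 in p53+/+ cells, against 1.96, 2.11, 2.05 and 3.81 in p53-/- cells, so the p53-/- 48 h array lay among the p53+/+ arrays and the groups overlapped. Its difference of 1.15 was not called (limma adjusted p = 0.193), but passed without the 48 h arrays (1.40, adjusted p = 0.0384) and with time as a block (0.0472). In p53-/- cells 0 H2B genes were at least 2-fold above 0 h at 12 or 24 h, and 4 were at 48 h. The list of histone genes with described polyadenylated forms held 5 genes: H1-2, H2AC6, H2BC5, H2BC12 and H2BC21. Of these 2 were called higher (H1-2 and H2AC6) and 0 lower (background 11.6% and 9.34%), with a median difference of 1.55. When the 48 h arrays were left out, the 2 called higher were H2BC5 and H2BC12 instead, and the median was 1.71.

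H2BC7 and H2BC6 ran against their class. H2BC7 read -2.52, -3.44, -4.16 and -4.45 in p53+/+ cells, the last not above background, and -1.34, -1.36, -2.31 and -2.65 in p53-/- cells. No treated array exceeded the 0 h array of its genotype, the gene was lower in p53+/+ cells at 0 h already, and its treated difference was -1.91 (SE 0.41, limma adjusted p = 0.0238), with an adjusted p of 0.0661 without the 48 h arrays. H2BC6 had a treated difference of -0.87 (SE 0.44) and was not called (limma adjusted p = 0.215). Its probe was not above background on the p53+/+ 48 h array.

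The pair of H2AC7 and H2BC7, whose shared upstream sequence is printed above, thus split. Pairs of H2A and H2B genes that start back to back within 500 bases were looked up after these values had been seen. There were 10 such pairs, with 193 to 245 bases between starts, and in 9 of them both genes could be compared. In 6 pairs both genes had treated differences above 0, such as H2AC8 and H2BC8 (1.27 and 1.16). In 3 pairs the signs were opposite: H2AC7 and H2BC7 (2.50 and -1.91), H2AC13 and H2BC13 (-0.77 and 1.05), and H2AC14 and H2BC14 (-0.13 and 0.96). H2AC7 and H2BC7 were the one opposite pair in which both genes were called.

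**Figure D4:**
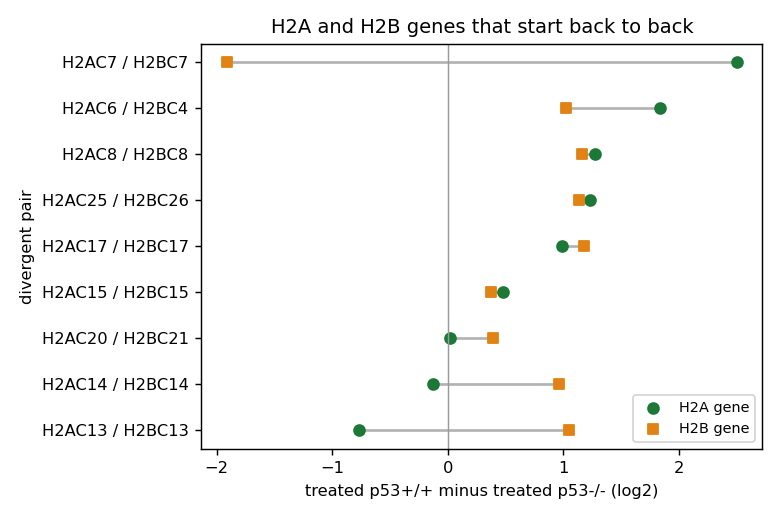
Each row is a pair of H2A (circle) and H2B (square) genes that start back to back, and the horizontal axis is the log2 difference between treated p53+/+ and treated p53-/- cells; the line joins the pair. The H2AC7 and H2BC7 row is the widest, at 2.50 and -1.91, and 6 of the 9 rows lie right of 0.

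H3 genes gave the most uniform picture across members. All 13 had a treated difference below 0 on the probe used, from -0.06 to -2.36, though the second probe of H3C10 gave 0.36. In 10 of 13 every treated p53+/+ array was below every treated p53-/- array, against 19.9% of all genes. The opposite order was seen in 0 of 13, against 24.6% of all genes. The H3 median was also -0.44 between the 0 h arrays, and -0.73, -0.62 and -1.29 at 12, 24 and 48 h. The 0 h value was not particular to H3. It was -1.16 for H1, -0.56 for H2A, -0.28 for H2B and -0.44 for H4, against 0.03 for all genes. Without the 48 h arrays the H3 median was -0.70. By limma 2 of 13 were called lower and 0 higher (background 9.34% and 11.6%).

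H3C2 read 1.53, 0.49, 0.47 and -1.31 in p53+/+ cells, against 2.56, 2.44, 2.22 and 2.08 in p53-/- cells. Its highest p53+/+ array was the untreated one, and this was below every p53-/- array; the treated difference was -2.36 (SE 0.50, limma adjusted p = 0.0223), and -1.85 without the 48 h arrays. H3C15 read 2.62, 2.25, 2.85 and -1.71 in p53+/+ cells, against 3.41, 3.03, 3.47 and 3.52 in p53-/- cells. Its difference of -2.21 (SE 1.13, limma adjusted p = 0.22) rested on the 48 h array and was -0.70 without it; H3C15 and H3C14 are near-identical copies. H3C8 was the other H3 gene called lower, by -0.93 (SE 0.23, limma adjusted p = 0.0384).

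H3-4 and H3C3 differed from their own 0 h arrays by less than 2-fold at every time. H3-4, known as a testis H3 gene, read 5.83, 5.74, 5.87 and 5.82 in p53+/+ cells, against 5.49, 5.75, 5.96 and 5.91 in p53-/- cells. H3C3 read 4.43, 4.17, 4.23 and 4.18 in p53+/+ cells, against 3.99, 4.33, 4.50 and 4.53 in p53-/- cells. Differences of -0.06 and -0.26 for these genes were not called (limma adjusted p = 0.837 and 0.32), and whether their probes also bind the near-identical H3 copies was not tested. With no scaling both were called lower.

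H4 genes split by member. H4C3, named for its strong signal, read 7.33, 6.69, 6.15 and 5.68 in p53+/+ cells, against 7.54, 7.54, 7.38 and 7.03 in p53-/- cells. Its treated groups did not overlap, with a difference of -1.15 (SE 0.30, limma adjusted p = 0.0442), and an adjusted p of 0.0883 without the 48 h arrays. H4C13, H4C2 and H4C1 were called lower too, by -1.36, -1.31 and -0.69. H4C15 went the other way: it read 1.11, 2.42, 3.08 and 3.19 in p53+/+ cells, against 1.50, 1.33, 1.78 and 1.97 in p53-/- cells. Every treated p53+/+ array was above every treated p53-/- array, by 1.20 on average (SE 0.29, limma adjusted p = 0.033), and the near-identical copy H4C14 may share the signal. H4C15 and H4C9 were the 2 H4 genes that rose at least 2-fold at all 3 times. Since H4C1 and H4C13 rest on 2 probes each, the probes are compared next.

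A second probe was present for 9 members, and the pairs of probes did not always read alike. The signs of the treated difference were opposite for H2AC17 (0.99 and -1.01), H3C10 (-1.09 and 0.36), H4C12 (0.32 and -0.06) and H4C4 (0.85 and -1.27). H2AC17 was called higher by its brighter probe and not called by the other (limma adjusted p = 0.0463 and 0.0644). For H2BC21 the brighter probe gave 0.39 and the other 2.68 (limma adjusted p = 0.172 and 0.028). That other probe was not above background on either 0 h array or on the p53-/- 12 h array, and treated p53+/+ cells were at least 10.6-fold higher than their 0 h array. For H4C1 the other probe was not above background on any treated p53+/+ array, and treated p53-/- cells were at least 3.09-fold higher. Probe sequences were not used here, so which mRNA form or gene copy each probe reads was not tested.

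**Figure D5:**
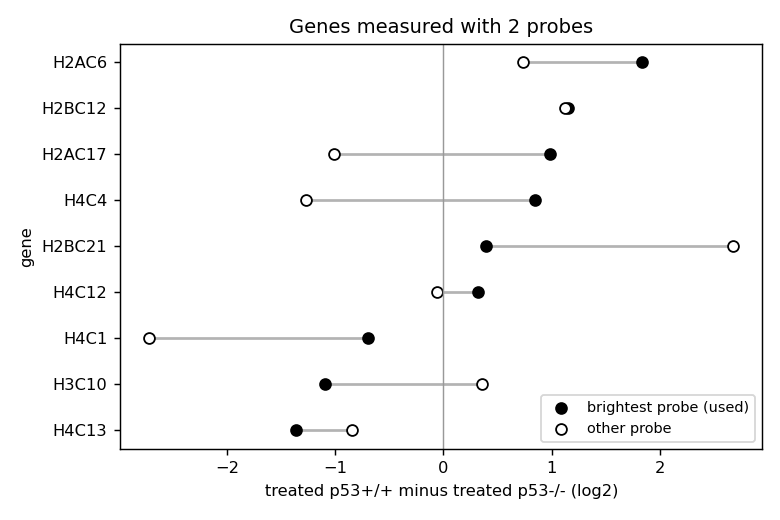
Each row is a gene with 2 probes, and the horizontal axis is the log2 difference between treated p53+/+ and treated p53-/- cells; filled points are the brighter probe, which gives the gene's value, and open points are the other. Lines that cross 0 mark the 4 genes whose probes had opposite signs.

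The third question was whether the change from 0 h differed between genotypes. By the interaction term of limma 0 members were called, higher or lower, against 1.12% and 0.759% of all genes, and 14 had an unadjusted p under 0.05. In simulated data this term recovered 12% of differences of 3 and 20% of differences of 4 on the log2 scale, so the count says little on its own. For the treatment change in p53+/+ cells 6 members were called higher (H2AC7, H2AC19, H2AC6, H2AC21, H2AC17 and H2BC26) and 0 lower, with 5.22% and 3.14% of all genes called, and 34 members had an unadjusted p under 0.05. In p53-/- cells 0 members were called in either direction (0.0126% of all genes each way) and 2 had an unadjusted p under 0.05. The share of all genes with an unadjusted p under 0.05 was not computed. The shares printed are for adjusted calls and are no background for the 14, 34 and 2 members. The 6 in p53+/+ cells became 1 without the 48 h arrays and 0 without the 24 h arrays. Of all genes, 826 were called higher in this fit, 538 without the 48 h arrays and 33 without the 24 h arrays. These fits rest on the 0 h arrays, and the p53+/+ one stands apart as described above.

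S phase regulators and genes that make and process histone mRNA formed a list of 16, of which CPSF2 was above background on no array. Of the other 15, 10 were called lower in treated p53+/+ cells and 0 higher (background 9.34% and 11.6%), with a median difference of -1.42. SLBP, which binds the stem-loop, read 3.56, 1.74, 1.43 and 1.70 in p53+/+ cells, against 2.79, 3.83, 3.85 and 4.08 in p53-/- cells. It fell in the former on all treated arrays, and was above its 0 h level on all treated p53-/- arrays. The difference was -2.30 (SE 0.19, limma adjusted p = 0.001). SLBP and CCNE1, a cyclin of S phase entry, also passed the interaction test on all 8 arrays, with estimates of -3.07 and -4.72. Neither passed it without the 24 h or without the 48 h arrays. In those settings 0 of all genes passed, so the loss is not particular to SLBP and CCNE1. The estimates rest on 1 untreated array per genotype, and CCNE1 was 2.03 higher on the p53+/+ 0 h array than on the p53-/- one. NPAT, the co-activator of histone genes, read -2.76, -3.60, -3.77 and -3.99 in p53+/+ cells, against -3.14, -2.55, -2.26 and -2.67 in p53-/- cells, with a difference of -1.30 (SE 0.20, limma adjusted p = 0.0092). CCNE2 and E2F1 had the largest differences of the list, -4.80 and -4.79, on probes not above background on the p53+/+ 48 h array, and -3.71 and -3.43 without the 48 h arrays.

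S phase genes had 7 of 13 called lower and 0 higher (background 9.34% and 11.6%), with a median difference of -2.78. The helicase subunit MCM3 was among the 7 called lower (-2.65, limma adjusted p = 0.0023). Without the 48 h arrays 10 were called lower and 0 higher (827 and 932 of all genes), with a median of -1.92. PCNA, the replication clamp and a p53 target, was the exception in sign, at 0.36. Histone chaperones, which carry histones to DNA, had 5 of 13 called lower and 0 higher (background 9.34% and 11.6%), with a median of -0.96. When the 48 h arrays were left out, 5 were called lower and 0 higher (median -0.99), but mostly other genes. They were ASF1B, CHAF1A, CHAF1B, HJURP and SUPT16H, and of these only SUPT16H was called with all treated arrays. NASP, a chaperone of H3 and H4, read 3.91, 3.26, 3.06 and 2.52 in p53+/+ cells, against 3.60, 4.24, 4.07 and 3.85 in p53-/- cells. It was called lower with all treated arrays (limma adjusted p = 0.0277) and lost its call without the 48 h arrays (0.0624). Of 11 replication-independent variants, which are made outside S phase, 2 were called higher and 1 lower, with a median of -0.08. The background was 11.6% and 9.34%, so these counts say little about the variants as a list. MACROH2A2, a large H2A variant, was called higher, by 1.31 (SE 0.20, limma adjusted p = 0.0084), and CENPA, the centromere histone, was called lower, by -4.73, on a probe not above background on the p53+/+ 48 h array (-3.16 without the 48 h arrays). Without those arrays 0 variants were called higher, MACROH2A2 having an adjusted p of 0.0528. H3-3A and H3-3B, which encode H3.3, had differences of 0.23 and -0.06 and were not called.

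Promoter sequence was set beside these groups as a description. Of the 20 members that rose at least 2-fold at all 3 times in p53+/+ cells, 13 had the octamer (65%), against 11 of the 38 other members tested that had an entry (29.0%), H3C4 with the H2AC7 sequence among them. The risen group holds 11 H2B and 7 H2A genes, the classes in which the octamer is common, so class and octamer cannot be told apart here. By the limma calls 5 of 9 members called higher and 2 of the 6 called lower with an entry had it. In the gap between H2AC7, called higher, and H2BC7, called lower, the octamer and CCAAT sequences are shared by both genes.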

How the data were processed

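RNA from 8 samples was labelled with Cy3 and hybridised to 8 single-colour SurePrint G3 Human GE arrays on 1 slide. Values are processed-signal intensities: the authors deposited the output of Agilent Feature Extraction 10.7.3.1 (hg19 design), which had corrected each spot for background, and a table of the whole series whose values were the same (503808 of 503808 within rounding). Normalization between arrays is not given in the sources used here.

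Spots marked as uneven or as population outliers were left out, which removed 14 of 42405 probes. The log2 signal minus the log2 of each array's 75th percentile was averaged over spots. Genes were named by RefSeq accession (27227 of 42391 probes; GRCh38.p14 table), and the probe with the highest mean stood for a gene. The 28947 probes above background on 1 array or more entered fits in limma 3.58.1 in R 4.3.3: treated p53+/+ against treated p53-/- (6 arrays), and genotype, treatment and their interaction (8 arrays), each with 4 residual degrees of freedom and Benjamini-Hochberg adjustment over all probes fitted. A change of at least 2-fold from 0 h was a size rule with no test. Bounds ("at least N-fold") set the brighter group's mean against the lowest signal well above background on the dimmer arrays, or the probe's own signal if higher. Probes printed in 10 spots (999) gave a technical SD of a log2 change between 0.53 for dim and 0.089 for bright probes of 1 spot. The number of arrays limits the precision.

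On simulated data with 28947 probes the treated comparison recovered 14, 58, 70 and 80% of differences of 1, 2, 3 and 4 on the log2 scale, with 5 false calls. The members and gene lists were chosen with earlier results of these data known. Members named are the 6 highest and 6 lowest treated differences, the 4 highest and 4 lowest mean changes in p53-/- cells and the 4 highest mean levels; others called, in a pair, on 2 probes or in a short count were named after their values were seen, and up to 4 genes of each list with the largest absolute difference were named by rule. Python 3.11.15, numpy 2.4.6, pandas 2.3.3 and matplotlib 3.10.9 were used. Alternatives were quantile normalization, median scaling, no scaling, normexp (offset 50), the mean of a gene's probes, 2 other background filters, each time left out, time as a block, a 3-fold rule and the p53-/- 0 h array as baseline. Some genes that these rules and lists cover are not reported here.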

Additional observations from a re-analysis of the deposited data

Results flagged for a closer look

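For 11 members, all 3 treated arrays lay on one side of 0 h in p53+/+ cells and on the other side in p53-/- cells. The share of all genes with this pattern was not computed, so the count is a description only. In 8 of the 11 members the p53+/+ arrays were above 0 h. Their difference between the mean changes of the genotypes was 3.04 for H1-3, 2.68 for H1-4, 2.45 for H2AC21, 2.30 for H2AC6, 1.35 for H2BC26, 0.88 for H4C12, 0.61 for H2AC12 and 0.51 for H4C11 on the log2 scale. In the other 3, all H3 genes, the p53+/+ arrays were below 0 h, and the difference was -0.51 for H3C13, -0.71 for H3C3 and -0.78 for H3C8. By limma's interaction term none of the 11 was called, with adjusted p-values from 0.0919 to 0.606. A change of 2-fold or more in both genotypes at every time was seen in 0 of the 11, and the smallest change was 0.005. Each rests on 1 untreated array per genotype, and the p53+/+ one read near the p53-/- arrays on separating probes.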

How the results depend on the processing

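Of the members, 9 were called higher and 8 lower in treated p53+/+ cells. With no scaling these counts were 3 and 21 (of all genes 908 and 5026), with normexp 23 and 15 (3518 and 2048), and without the 24 h arrays 0 and 0 (130 and 67), beside 1829 and 1476 of all genes as reported. The higher calls became 18 among probes above background on all 8 arrays (2011 of all genes) and 17 with no filter (2226). With time as a block 15 were higher and 10 lower (1579 and 1274 of all genes). The lower calls became 1 without the 12 h arrays and 4 without the 48 h arrays (804 and 827 of all genes). The H2A class median turned to -0.0776 with no scaling. The H4 median turned to 0.33 with normexp, 0.12 above background on all 8 arrays, 0.14 with no filter, 0.29 without 12 h and 0.01 without 24 h (0.0057). Interaction calls went from 0 to 4 with normexp and 3 above background on all 8 arrays. Of all genes, 177 higher and 120 lower became 555 and 344 with normexp, and 328 and 203 above background on all 8 arrays. The 6 members called higher for the treatment change in p53+/+ cells became 13 with normexp, 13 above background on all 8 arrays, 0 without 24 h and 1 without 48 h. Over all genes the 826 called higher became 1309, 910, 33 and 538 under the same settings. The 20 members that rose at all 3 times in p53+/+ cells became 12 with median scaling, 9 with no scaling, 4 with a 3-fold rule and 9 from the p53-/- 0 h array. The 2 that fell became 4, 7, 0 and 8 under the same settings, and 1 with normexp. The 2 that fell in p53-/- cells became 0 with no scaling and 0 with the 3-fold rule. The cause of these shifts was not tested.

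Among named members, H1-2 lost its call with quantile normalization and with no scaling (limma adjusted p = 0.0526 and 0.0585), and H2BC9 with no scaling (0.0521). Without the 12 h arrays H2AC16, H4C3, H3C2 and H2BC9 lost theirs (0.0527, 0.0668, 0.0735 and 0.0815). The H3 median stayed below 0 and the H1 and H2B medians above 0 in all 11 alternatives run. The H1 median is the middle of 5 genes, of which 3 had differences above 0 and 2 below, so it gives no direction for the class. The labels give no replicate numbers, so the pairing used was by time: as a block, it called H1-1, H2BC5 and H2BC12 too (limma adjusted p = 0.0284, 0.025 and 0.0472). Dim probes limit H2BC7, H2BC6, H2AC16 and H4C16, which were not above background on part of the arrays. The probes used for H2BC26 and H2BC21 were dim too, though above background on all 8 arrays.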
